A study of Drosophila melanogaster with 2 samples.

Results

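The chemosensory receptor genes of Drosophila melanogaster make up 3 large families: the odorant receptors (Or), the gustatory receptors (Gr) and the ionotropic receptors (Ir). They were taken by symbol, as every protein-coding gene of the dm6 annotation named Or, Gr or Ir followed by a number and a letter. This gave 179 of the 13968 protein-coding genes on the chromosome arms, with 59 Or, 60 Gr and 60 Ir genes. A further 6 pseudogenes with such symbols were left out, and Orco, the odorant coreceptor, has a symbol of another form and is described apart. Binding of the protein encoded by aop (anterior open, or Yan) had been mapped by chromatin immunoprecipitation and sequencing (ChIP-seq), and the question asked here was where its sites lie around these genes. Flies carried a transgene for aop fused to enhanced green fluorescent protein (aop-eGFP), listed as an insertion that targets aop. Whole embryos of 0 to 24 h gave sonicated chromatin that was precipitated with an antibody to GFP. The labels list 2 biological replicates in 1 group, and control libraries were not analysed here. A whole embryo mixes all of its tissues, and the labels do not say which cells held the tagged protein. Values of the sensory neurons alone were therefore not obtained.

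Odorant receptors are membrane channels that each work together with Orco, and most olfactory neurons express a single one beside it. Gustatory receptors serve taste neurons for sugars and bitter compounds, and a pair of them senses carbon dioxide. Ionotropic receptors descend from the ionotropic glutamate receptors and detect acids, amines, temperature and humidity together with broadly expressed coreceptors. The larval sense organs are built during embryogenesis and those of the adult much later, so the collection covers the making of the larval organs only. The aop protein is a repressor with an ETS domain, a DNA-binding fold that recognises a short site with GGAA at its centre, and it is regulated by MAPK phosphorylation.

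Some sequences at receptor genes are shown first: places at Gr93a and Gr89a, the receptor genes with the strongest candidates, and the peak inside a receptor gene, Ir76a. They were picked after their values were seen, and other strong places, such as that of Or45b, are not shown. Signal is the authors' own value for each peak, in a unit whose scaling is not stated, so it is compared within a list only. A thresholded peak is one the authors kept after ranking, and a candidate is any place in their ranked list. All are from Release 6 of the genome (dm6) and on the plus strand. Capitals mark the letters CGGAA or their reverse complement TTCCG, here called the ETS core, which is GGAA with a C before it. The first line is the thresholded peak upstream of Gr93a, and the second is the next strongest place at the same gene, on its other side. The next lines are from Gr89a: a candidate past the end of the gene, and the stretch between the start of Gr89a and the end of its neighbour Decay, a caspase gene on the same strand. The last is a thresholded peak inside Ir76a.
Gr93a upstream peak, chr3R:21828261-21828516: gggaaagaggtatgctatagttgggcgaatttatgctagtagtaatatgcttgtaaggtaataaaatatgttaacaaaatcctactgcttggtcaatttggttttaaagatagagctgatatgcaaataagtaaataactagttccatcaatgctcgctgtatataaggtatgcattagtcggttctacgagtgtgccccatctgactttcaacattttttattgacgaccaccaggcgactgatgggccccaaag
Gr93a downstream candidate, chr3R:21836668-21836923: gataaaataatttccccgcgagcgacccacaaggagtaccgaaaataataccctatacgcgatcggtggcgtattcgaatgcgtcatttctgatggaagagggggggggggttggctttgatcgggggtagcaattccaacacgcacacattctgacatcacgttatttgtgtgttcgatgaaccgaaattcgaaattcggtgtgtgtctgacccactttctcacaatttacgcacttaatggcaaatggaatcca
Gr89a downstream candidate, chr3R:16497467-16497722: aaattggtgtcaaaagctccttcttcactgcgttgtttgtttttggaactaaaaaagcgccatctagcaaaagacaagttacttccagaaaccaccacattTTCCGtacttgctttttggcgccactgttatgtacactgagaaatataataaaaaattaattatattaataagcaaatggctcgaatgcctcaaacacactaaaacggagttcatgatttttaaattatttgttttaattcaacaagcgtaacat
Between Gr89a and Decay, chr3R:16498960-16499057: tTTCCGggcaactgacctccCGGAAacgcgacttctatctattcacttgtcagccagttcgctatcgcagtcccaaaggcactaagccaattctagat
Peak inside Ir76a, chr3L:19800808-19801063: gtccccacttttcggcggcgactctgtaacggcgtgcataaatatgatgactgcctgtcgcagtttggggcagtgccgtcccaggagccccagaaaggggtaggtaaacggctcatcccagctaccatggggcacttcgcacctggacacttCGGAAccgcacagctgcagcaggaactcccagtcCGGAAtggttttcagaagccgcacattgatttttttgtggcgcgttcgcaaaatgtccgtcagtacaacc
The bound place upstream of Gr93a and the one downstream of it hold neither CGGAA nor TTCCG, although both hold the shorter GGAA and its reverse complement TTCC. The Gr89a candidate past the gene's end holds 1 core, the Gr89a to Decay interval holds 2 within 98 bp, and the peak inside Ir76a holds 2 within 256 bp. The interval is part of the candidate at the Gr89a start, which holds 4 within its own 256 bp and is not printed whole. The core is not typical of such places. It was in 25.4% of windows of 201 bp around the strongest candidates of receptor genes, and in 30.4% of those around all candidates.

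A thresholded peak was found for 1 of the 179 receptor genes (0.559%, exact 95% binomial interval 0.0141 to 3.07), where 9.36% of all protein-coding genes had one. A gene was counted as bound when its transcription start site (TSS) was the nearest protein-coding start to the summit of at least 1 peak in the authors' thresholded list made from both replicates, which holds 1725 peaks. None of the 59 Or genes was bound (upper limit of the interval 6.06%), none of the 60 Ir genes (5.96%), and 1 of the 60 Gr genes (1.67%, 0.0422 to 8.94). The bound gene was Gr93a, which encodes a receptor needed for the taste of caffeine. The authors' conservative list also gave Gr93a alone, against 8.24% of all genes. The thresholded list of replicate 2 alone again gave Gr93a, against 6.62%, and that of replicate 1 alone gave no receptor gene, against 3.87%. The intervals cover counting error only, and because the genes were chosen with earlier results of these data known, no test of the difference was made.

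The receptor genes had about as much sequence around them as other genes. The territory of a gene, here the length of sequence nearer to its TSS than to any other protein-coding start, had a median of 4.09 kb for receptor genes and 4.25 kb for all genes. By family the median was 5.11 kb for Or, 3.13 kb for Gr and 5.63 kb for Ir genes. The bound share of all genes was 3.29% in the decile of shortest territory and 21.8% in that of the longest. If each receptor gene had the bound share of all genes in its own decile, the count would be 17.2, made up of 6.26 Or, 4.81 Gr and 6.08 Ir genes. The observed count was 1, in decile 8, where 1 of 17 receptor genes and 11.95% of all genes were bound. The longest decile held 14 receptor genes and none was bound.

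**Figure D1:**
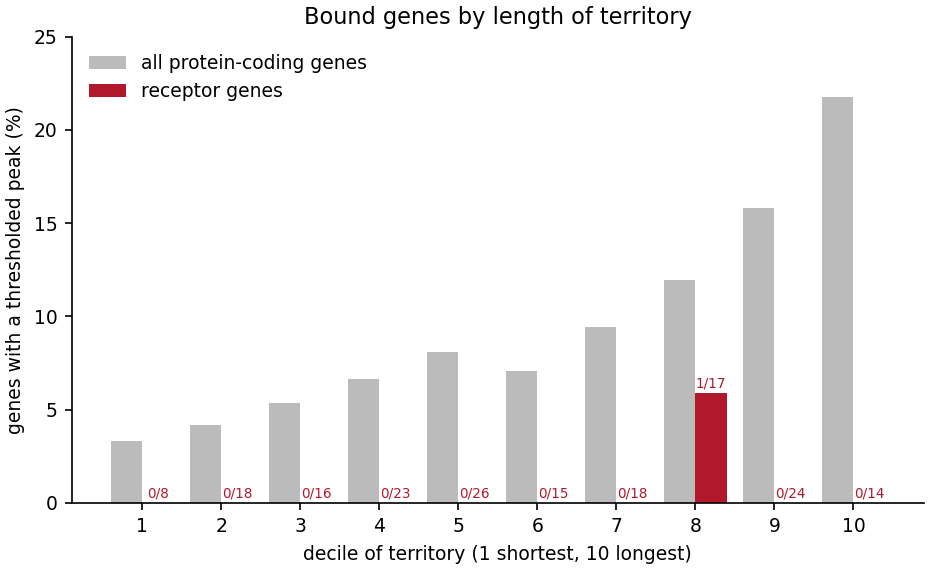
Share of genes with a thresholded peak (y axis, percent) in each decile of territory (x axis, 1 shortest to 10 longest), for all protein-coding genes in grey and receptor genes in red, with the receptor count over each bar. The grey bars go from 3.29% on the left to 21.8% on the right, and the receptor genes show a single bar, 1 of 17 in decile 8.

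Candidates of any strength were as dense at receptor genes as at others. The authors' ranked list, which holds every candidate before thresholding (147076 places), gave 1791 candidates at receptor genes, or 1.14 per kb of territory, against 1.06 per kb over all genes. The rate was 1.16 per kb for Or, 1.15 for Gr and 1.11 for Ir genes. The median receptor gene had 6 candidates and the median gene 5, with 6 for Or, 4 for Gr and 6.5 for Ir genes. Only Or49a, which detects an odour of parasitoid wasps, and Gr36c had none, or 2 of 179, against 1149 of all 13968 genes. A single candidate stood at Or19b (signal 11.6), Or23a (8.62), Gr22b (21.4), Gr36b (21.1), Ir75c (7.44) and Ir94c (15.8), among others. Candidates were most numerous at Or98a (93), Or67d (68) and Or98b (55), at Ir41a (86), Ir40a (38) and Ir56a (38), and at Gr92a (34), Gr2a (25) and Gr68a (23). These genes had long territories, from 16.8 kb at Gr68a to 81.3 kb at Ir41a. Their rates ran from 0.933 per kb at Or67d to 1.44 at Or98a. Or67d is the receptor for the male pheromone cis-vaccenyl acetate.

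Candidates at receptor genes were weaker at the top. The strongest candidate of a gene had a median signal of 26.4 over the 177 receptor genes with any and 28.9 over all genes. It was 27.2 for Or, 24.8 for Gr and 26.5 for Ir genes. The interquartile range was 21.1 to 31.2 for receptor genes and 22.9 to 36.5 for all genes, so the ranges overlapped widely and the upper end differed most. No receptor gene passed 50.9, the signal at Gr93a, while the strongest candidate of any gene reached 1468 and the median thresholded peak 64.9. The highest values in the other families were 47.0 at Or45b and 41.8 at Ir40a. Within deciles of territory, 121 of the 179 receptor genes (67.6%) lay under the median of all genes of their decile.

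**Figure D2:**
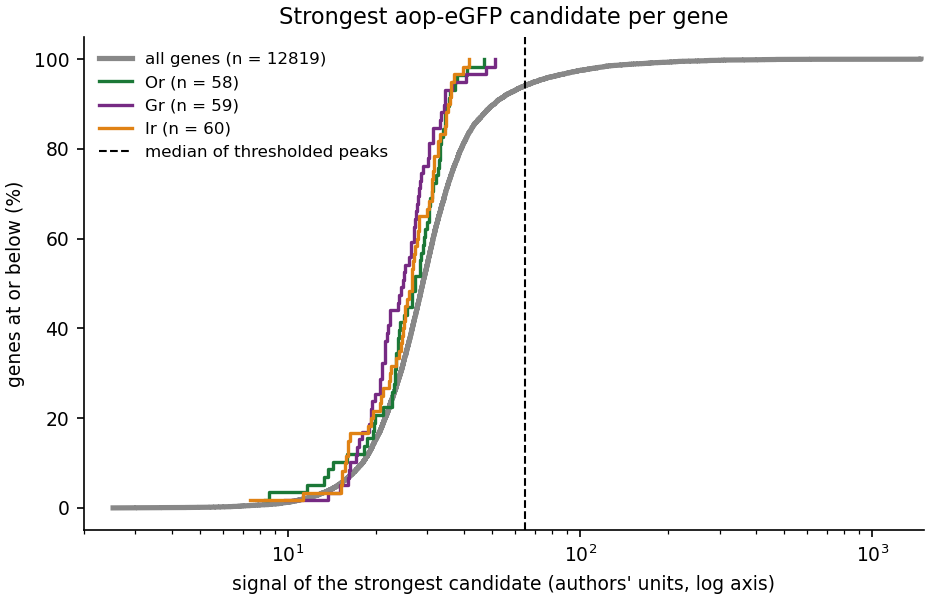
Cumulative share of genes (y axis, percent) by the signal of their strongest candidate (x axis, authors' units, log scale), for all genes in grey and each receptor family in colour, with a dashed line at the median of thresholded peaks. The curves end at 50.9 for Gr, 47.0 for Or and 41.8 for Ir genes, short of the line at 64.9, while the grey curve runs on to 1468.

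Among the 5000 strongest places of the ranked list, 14 belonged to 10 receptor genes. This is 5.59% of receptor genes, against 22.9% of all genes. Of all candidates at receptor genes 0.782% ranked so high, compared with 3.36% over all genes. The 10 genes were Gr93a, Gr89a, Gr85a, Or45b, Or30a, Or67c, Or83c, Ir40a, Ir85a and Ir94a. The score deposited with each candidate, a rank score of the irreproducible discovery rate (IDR) procedure with a maximum of 1000, was at least 830 in the thresholded list. Of the 1791 candidates at receptor genes 1 reached that score, the bound one of Gr93a. This restates the bound count, since that score is the lowest of the thresholded list. On the arms the thresholded list held 1692 places and the ranked list 145057.

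At Gr93a the bound peak lay 4114 bp upstream of the TSS, in intergenic sequence of 3R, and is the first of the sequences shown above. Its signal was 50.9 with a score of 1000 in the list of both replicates, where it ranked 1434 of the 1725 thresholded peaks and 1675 of all candidates. The peak was not counted when a limit of 2 kb from the start or of the list's median signal was set. Replicate 1 held a candidate there with a signal of 23.5 (rank 1738 of 93043), and replicate 2 one of 40.0 (rank 964 of 113872). The place was thus high in both lists, and higher in that of replicate 2. The nearest gene on the other side was the noncoding lncRNA:CR45632, 4303 bp away, and Gr93a was the closest protein-coding gene. The next protein-coding start on that side was that of CASK, 9829 bp from the Gr93a start. The peak thus lay between the starts of CASK and Gr93a, and its assignment rests on distance alone. A second candidate 3237 bp upstream had a signal of 41.8 and a score of 757, with 13.3 in replicate 1 and 25.6 in replicate 2. The downstream candidate, 4293 bp past the TSS, had a signal of 48.3 but a score of 370. Its signal was 7.98 in replicate 1 (rank 59110) and 34.1 in replicate 2 (rank 1480), so the replicates differed there more than at the bound peak.

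Gr93a had 18 candidates in all, and the strongest within 500 bp of its start had a signal of 19.5. Its neighbours Gr93b, Gr93c and Gr93d, related genes in a cluster downstream, were not bound. Their strongest candidates had signals of 24.4, 27.0 and 33.4.

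**Figure D3:**
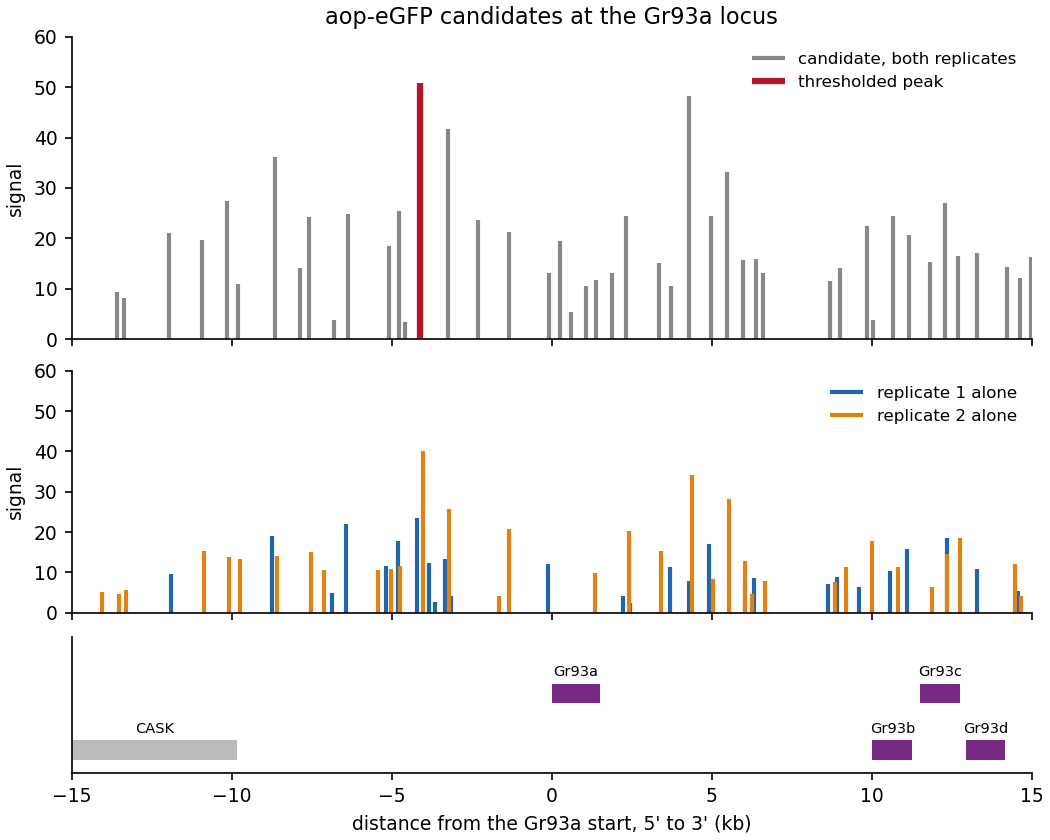
Signal of candidates (y axes, authors' units) by distance from the Gr93a start (x axis, kb, in the direction of the gene), in the list of both replicates (top), in each replicate's own list (middle) and above the protein-coding genes (bottom). The thresholded peak in red stands at 50.9, upstream of the gene, and the tallest grey line on the other side at 48.3 was not thresholded.

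Gr89a, a receptor of most bitter-sensing taste neurons, was the receptor gene with the strongest candidate at its own start. That candidate (chr3R:16498875-16499130) had its summit 44 bp from the Gr89a TSS and 55 bp from the end of Decay. Its signal was 47.8 with a score of 738, and 17.4 in replicate 1 and 26.4 in replicate 2. The second candidate, 1364 bp from the TSS and beyond the gene, had a signal of 45 and a score of 720, with 15.5 in replicate 1 and 32.0 in replicate 2. Both places scored below 830 and were not in the thresholded list. Of all genes 1663 (11.9%) had a candidate among the 5000 strongest within 500 bp of their start, and Gr89a was the only receptor gene to have one (0.559%).

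The other candidates among the 5000 strongest lay more than 500 bp from the start of their receptor gene. At Or45b, a larval odorant receptor, the strongest was 4804 bp from the TSS with a signal of 47.0, and 21.0 in replicate 1 and 21.4 in replicate 2. At Or30a, also larval, it was 6576 bp away with 41.1, and 19.8 and 21.3 in the replicates. At Ir40a, which acts in the sensing of dry air, it lay in the gene's own intron with 41.8, and 14.0 and 24.2 in the replicates. These places were present in the lists of both replicates, in which signals are on separate scales. By rank, Or45b stood at 2735 in replicate 1 and 7519 in replicate 2, and Or30a at 3583 and 7597. Ir40a went the other way, at 15749 and 4585. At Gr85a the candidate fell in the 3' UTR of Glut4EF with a signal of 40.8, and 18.8 and 28.7 in the replicates. At Ir85a it fell where the gene overlaps Pif1A and Pif1B, with 39.6, and 23.1 and 18.3 in the replicates. The candidates at Or67c (37.9), Or83c (37.4) and Ir94a (37.0) were intergenic. Next in order within the families were Gr57a (36.4) and Gr92a (34.5), Ir64a (36.2) and Ir60a (36.0), and Or24a (35.9). Of these, the candidates of Gr92a and Ir60a lay near the gene's start, at 17 bp and 448 bp. Ir64a detects acids, and Or83c detects farnesol.

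Candidates close to receptor starts were common but weak. A candidate within 500 bp of a TSS was found at 148 receptor genes (82.7%), against 77.4% of all genes. The share was 91.5% for Or, 83.3% for Gr and 73.3% for Ir genes. In the replicates' own lists the order turned, with 50.3% of receptor genes against 61.2% of all genes in replicate 1 and 56.4% against 70.1% in replicate 2. The strongest such candidate had a median signal of 16.9 for receptor genes and 21.9 for all genes. It was 18.2 for Or, 17.7 for Gr and 14.5 for Ir genes. After Gr89a, the highest were Ir60a (36.0), Gr92a (34.5), Gr59b (34.4), Or65a (32.8), Ir25a (32.7), Ir68a (31.5) and Gr28b (31.3). Of the candidates of receptor genes 12.4% lay within 500 bp of the gene's own start, against 13.0% over all genes. The strongest candidate of the gene lay near the start for 36 receptor genes (20.1%), compared with 33.0% of all genes.

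By distance, the gap in strong candidates was widest at the start. In the 500 bp upstream of the gene start, 14.5% of all genes had a candidate from the top decile of signal, and 4 receptor genes (2.24%) had one. In the 500 bp downstream, the shares were 10.4% and 1.12%, the latter 2 genes. Between 2500 and 2000 bp upstream, 7.12% of all genes and 15 receptor genes (8.38%) had one. In bins of 500 bp beyond the first on each side, out to 5000 bp, the receptor share ran from 1.68% to 8.38%. That of all genes ran from 6.53% to 8.82%. The receptor share was thus also low in some bins away from the start, with 2.24% against 7.06% from 2000 to 1500 bp upstream. It was higher in others, with 8.38% against 7.01% from 4500 to 4000 bp upstream. For candidates of any strength, the share upstream was 50.5% of all genes and 46.4% of receptor genes, and downstream 58.7% and 64.2%. Receptor genes thus lacked the rise of strong candidates at the start that all genes showed. Candidates of any strength were found at a larger share of receptor genes than of all genes in the bins next to these, with 69.8% against 56.8% from 500 to 1000 bp downstream and 65.4% against 55.2% from 1000 to 500 bp upstream.

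**Figure D4:**
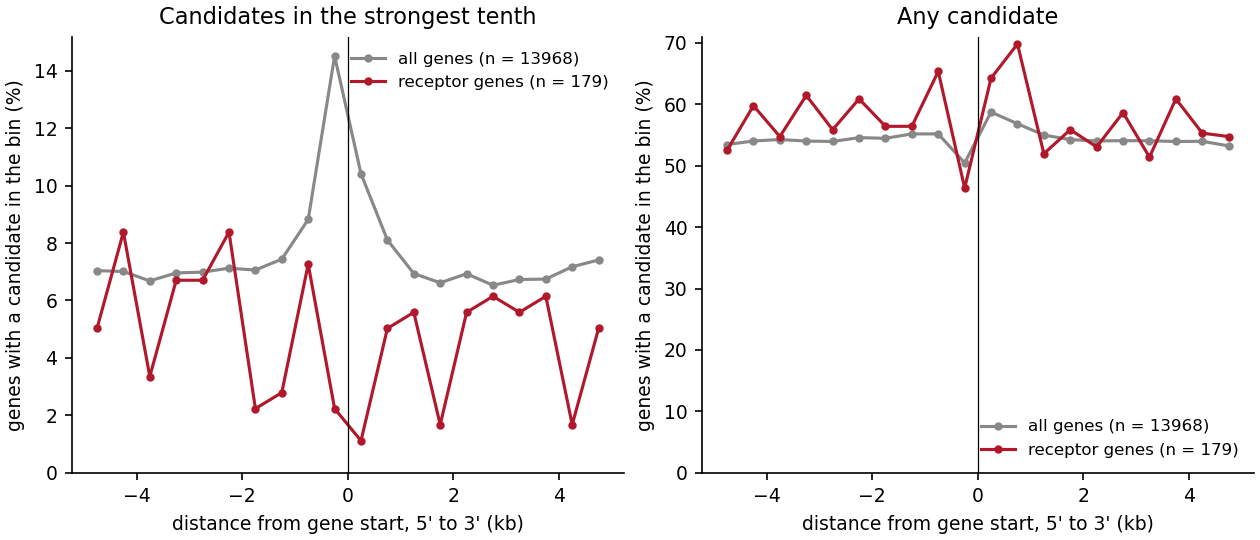
Share of genes with a candidate (y axes, percent) in bins of 500 bp by distance from the gene start (x axes, kb), for candidates of the top decile of signal (left) and all candidates (right), with all genes in grey and receptor genes in red. On the left the grey line rises to 14.5% just upstream of the start where receptor genes stand at 2.24%, and on the right the red line is above the grey one from 500 to 1000 bp downstream, at 69.8% against 56.8%.

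A smaller share of candidates lay in introns and a larger share between genes than over all genes. Of the 1791 candidates 37.9% were intergenic, against 23.4% of all candidates, and 22.8% intronic, against 37.8%. Coding exons held 19.2% and 19.3%. Places within 500 bp of any gene's start made up 15.6% and 15.2%. The Or family had the largest intergenic share of the 3 (43.1%), and the Gr family the largest share in coding exons (25.3%).

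The functional groups of receptors described next are small, with 2 to 25 genes, and Gr93a is in none of them. None of their genes was bound, where 9.36% of all genes were, a share at which groups of this size would hold few bound genes, so nothing is read from these counts. The 3 Ir coreceptors, with which the other Ir proteins form channels, had strongest candidates of 32.7 (Ir25a), 31.2 (Ir76b) and 22.1 (Ir8a). The Ir25a candidate lay 128 bp from its start, with 14.9 in replicate 1 and 22.0 in replicate 2. The 13 antennal Ir genes had a median of 27.0 and a range of 7.44 (Ir75c) to 41.8 (Ir40a). Gr21a and Gr63a, the carbon dioxide receptors, had strongest candidates of 26.9 and 27.6.

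The 9 sugar receptors had the lowest median of the groups, 19.4, with a range from 15.1 at Gr43a, a fructose receptor, to 30.3 at Gr64c. Their median territory was 1.63 kb, the shortest of these groups. The 5 broadly expressed bitter receptors had a median of 22.3 and ranged from 16.3 (Gr66a) to 47.8 (Gr89a). The 25 odorant receptors of the larva, whose neurons arise in the embryo, had a median of 26.6 and a range of 13.2 (Or94b) to 47.0 (Or45b), with none at Or49a. The 7 receptors of the maxillary palp, an adult organ, had a median of 23.5 and a range of 19.8 (Or46a) to 34.7 (Or85e). The palp range lay within the larval one, and Or42a is in both groups.

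Genes that work with the receptors were counted in the same way against the 9.36% of all genes. Orco was not bound. Its strongest candidate had a signal of 23.1 and lay 375 bp from the TSS, with the strongest of its candidates at 17.5 in replicate 1 and 17.9 in replicate 2. Of 16 regulators of sensory neuron fate and receptor choice 2 were bound (12.5%). They were hth, a homeodomain factor with 3 peaks of which the strongest had a signal of 83.9, and Xbp1 (52.0), a factor of the unfolded protein response. Of 49 odorant binding protein genes 3 were bound (6.12%): Obp99b with a peak 253 bp from the TSS (57.6), and Obp56i (50.3) and Obp56h (42.3) with peaks several kb away. None of the 29 pickpocket channel genes and none of the 13 ionotropic glutamate receptor genes was bound. Median territories of these 4 groups were, in the order given, 19.2, 2.26, 4.02 and 12.1 kb. In the deciles of territory that hold these medians, 15.8%, 5.37%, 8.09% and 11.95% of all genes were bound. The groups are small and differ in territory, so no difference from all genes is read from these counts.

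Thresholded peaks lay farther from receptor genes than from genes at large. The median distance from the gene start to the nearest peak was 47.4 kb, against 23.5 kb over all genes. It was 55.8 kb for Or, 35.2 kb for Gr and 44.4 kb for Ir genes. A peak lay within 1 kb of the start of 1 receptor gene (0.559%), Or88a, compared with 7.70% of all genes. Within 5 kb the count was 14 (7.82%), against 18.2%.

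The peaks that did lie near receptor genes were mostly at the starts of their neighbours. Counted from the gene body, 16 peaks lay within 5 kb of 15 receptor genes, 11 of them within 500 bp of an annotated start, and 1 was assigned to a receptor gene. The share of all thresholded peaks this close to a start was not counted. The place of these peaks is therefore not read as particular to receptor genes. The peak inside Ir76a, a receptor for phenylethylamine, had a signal of 45.9, with 23.2 in replicate 1 and 22.0 in replicate 2. It lay in an intron of Ir76a and in the coding sequence of the nested gene CG14102, 355 bp from the start of the latter. When a summit inside the gene body or within 500 bp of a start was counted, Ir76a was the 1 bound receptor gene, against 9.86% of all genes. Near Or88a, which responds to fly odours, the peak (47.3) lay 426 bp from the start of CG12402. Near Ir68b a peak of 60.9 stood 10 bp from the start of yps, with 54.6 in replicate 2 and no candidate in replicate 1. Near Or85f a peak of 99.2 stood 35 bp from the start of RpL34b, a ribosomal protein gene. The strongest of these peaks, 202.9, stood 144 bp from the start of tank and 2555 bp from that of Ir25a, with 87.3 in replicate 1 and 115.7 in replicate 2.

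The replicates' own lists placed the receptor genes at similar levels. The strongest candidate per receptor gene had a median of 13.1 in replicate 1, against 14.95 over all genes, and of 16.4 in replicate 2, against 18.6. The highest receptor gene was Ir41a in replicate 1 (24.6) and Gr93a in replicate 2 (40.0). Of the 177 strongest candidates in the list of both replicates, 130 overlapped a candidate of replicate 1 by at least 1 bp, 147 one of replicate 2, 109 both and 9 neither. Across the 155 receptor genes with candidates in both replicates, the strongest signals had a Spearman rho of 0.412, compared with 0.532 over 11784 genes. By family rho was 0.424 for 50 Or, 0.191 for 49 Gr and 0.597 for 56 Ir genes. These are descriptions across genes, which share the same 2 libraries, differ in territory and are not independent replicates.

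**Figure D5:**
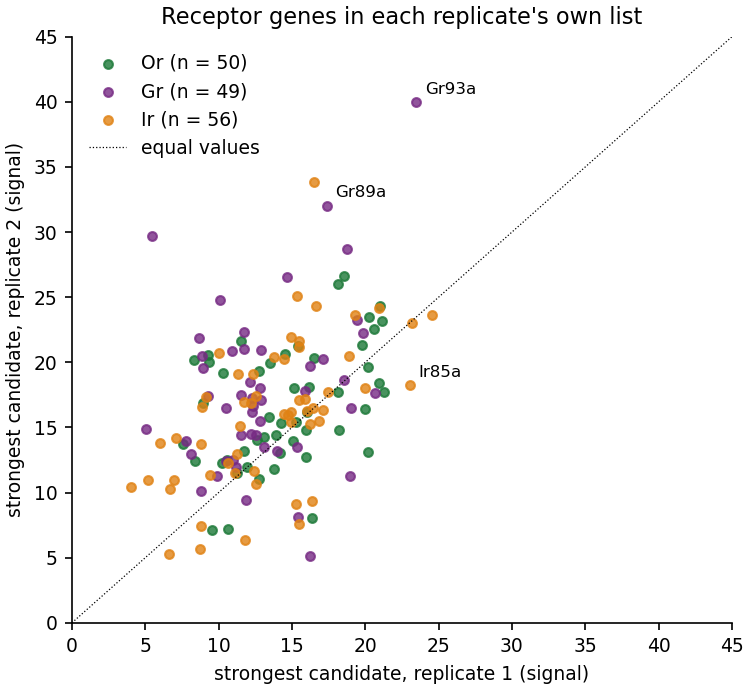
Signal of the strongest candidate of each receptor gene in replicate 1 (x axis) and replicate 2 (y axis), in the authors' units, coloured by family, with a dotted line at equal values. Gr93a stands at 23.5 and 40.0, above all other points on the y axis.

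The letters around receptor starts were compared with those of all genes in promoters of 300 bp, from 250 bp upstream to 50 bp downstream of the start. Each motif was searched on both strands, and the ETS core is part of the longer ETS site. The ETS core CGGAA was in 57 receptor promoters (31.8%) and in 34.8% of all promoters. It was in 30.5% of Or, 38.3% of Gr and 26.7% of Ir promoters. The longer site ACCGGAAGT was in 12 promoters of all genes (0.0859%) and in no receptor promoter. At that share 179 promoters would hold few or none, so nothing is read from its absence. GAGAGAG, bound by GAGA factor, was in 2 receptor promoters (1.12%) and 5.86% of all. TATCGATA, bound by DREF, was in 1 (0.559%) and 9.36% of all. TATAAA was in 54.2% of receptor promoters and 45.8% of all, with 78.0% of Or, 30.0% of Gr and 55.0% of Ir promoters. The median GC content was 39.3% for receptor and 38.0% for all promoters.

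Candidates were also counted at receptor promoters with and without an ETS core. With a core, 53 of 57 (93.0%) had a candidate within 500 bp of the start, with a median strongest signal of 18.6. Without one, 95 of 122 (77.9%) had a candidate, with a median of 16.4. Both values were higher with a core, and the difference was not tested. In windows of 201 bp around summits, the core was in 45 of the 177 strongest receptor candidates (25.4%), 30.4% of all candidates and 31.0% of thresholded peaks. GAGAGAG was in 1.13% of the strongest receptor candidates, 2.86% of all candidates and 8.87% of thresholded peaks. TATCGATA was in none, 0.521% and 3.25%. At the share over all candidates few of 177 windows would hold TATCGATA, so nothing is read from its absence.

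TATAAA at the place of a TATA box, on the gene's strand with its first base 45 to 20 bp upstream of the start, was less frequent. It was found in 15 receptor genes (8.38%) and 8.81% of all genes, with 9 of 59 Or (15.3%), 2 of 60 Gr (3.33%) and 4 of 60 Ir genes (6.67%). Of the Or genes with it 3 are shown, all larval receptors, each as the 60 bases up to the start and on the strand of the gene, with TATAAA in capitals, to show the spacing.
Or33a, chr2L:11934445-11934504, plus strand: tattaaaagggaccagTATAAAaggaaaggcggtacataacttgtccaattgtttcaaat
Or33b, chr2L:11936121-11936180, plus strand: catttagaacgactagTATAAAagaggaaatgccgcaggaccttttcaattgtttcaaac
Or74a, chr3L:17329170-17329229, minus strand: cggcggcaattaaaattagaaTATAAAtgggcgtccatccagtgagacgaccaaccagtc
The strongest candidate within 500 bp of the start had a signal of 22.3 at Or33a and 19.0 at Or74a, and Or33b had none there.

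Many receptor genes stand in tandem clusters, where the nearest start is one of several. A member of the same family lay within 5 kb of 76 receptor genes. Their strongest candidates had a median of 24.9 and none was bound. The other 103 had a median of 26.6, and 1 was bound. Clustered genes had a median territory of 3.09 kb and the others 5.72 kb. A start shared with another protein-coding gene was annotated for 6 members, among them Or10a with Gr10a, and 22 had another gene's start within 500 bp. For these the assigned gene is one of several.

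Near-identical stretches limit what can be said of a few genes. Or19a and Or19b, the former a receptor for citrus odours, are 99.5% identical over 1370 bp, and had strongest candidates of 8.35 and 11.6, among the lowest of the Or family. The Or19b candidate lay inside the gene, and that of Or19a outside it, 1544 bp from the start. A stretch of 3267 bp at Ir41a and Ir93a is 99.3% identical, which is only part of either gene. Whole gene spans with their introns were compared. Whether this stretch is receptor coding sequence or a repeat was not checked. The strongest candidate of Ir93a lay outside the gene, in an intron of KaiR1D. How reads from such stretches were placed is not given in the sources used here, so the values of candidates inside them are uncertain.

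On the arms, 31 receptor genes lie on 2L, 46 on 2R, 35 on 3L, 42 on 3R and 25 on X. The median of the strongest candidate was below that of all genes on each, with 24.2 against 30.0 on 2L, 26.0 against 29.0 on 2R and 26.4 against 29.9 on 3L. It was 28.4 against 29.4 on 3R and 23.3 against 26.1 on X. The gap was smallest on 3R, the arm of Gr93a and Gr89a.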

How the data were processed

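Peak lists from 2 replicates of whole embryos were used as deposited. Per the labels, coordinates are dm6, and all are given 1-based. The signal of each peak (column 7) is the authors' enrichment value with no stated scaling, and the score (column 5) was deposited as the rank score of the IDR procedure, per the file lists deposited with each library. The thresholded and ranked lists of both replicates together held 1725 and 147076 places, the conservative list 1473 and the other ranked list 144671. Replicate 1 alone had 628 and 93043, replicate 2 alone 1142 and 113872. Which aligner and peak caller were run is not given in the sources used here, and the lists hold no counts, so read depth is unknown. Further columns of the ranked lists, 16 in all, look like values per input. They carry no sample name and were not used.

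Summits on the arms (1692 thresholded, 145057 ranked) were assigned to the nearest protein-coding TSS of Ensembl release 115. A candidate was near a start within 500 bp of a TSS of its gene. Sequence came from the RefSeq copy of Release 6, and near-identical stretches among members (at least 95% identical over 200 bp) from blastn 2.17.0. Python 3.11.15, numpy 2.4.6, pandas 2.3.3 and scipy 1.17.1 were used, and the assignment was tested on simulated data. The members and functional lists were chosen with earlier results of these data known. Named were every bound gene, in each family the 5 with the strongest candidates and those with the most and fewest, members with a strong candidate at their start, and the functional lists. Members with a candidate among the 5000 strongest, near a thresholded peak, or with a near-identical stretch in another were named after their values were seen. Alternatives covered the list, replicate, strength and assignment rule. No test was made, since there is 1 group.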

Additional observations from a re-analysis of the deposited data

How the results depend on the processing

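The count of bound receptor genes was 0 to 1 when either replicate was left out, for all members and for Gr genes alike. It was 0 with peaks at or above the list's median signal (5.21% of all genes) and 0 within 2 kb of the TSS (7.30%). With summits in the gene body or within 500 bp of a start (9.86%), and with peak intervals within 500 bp (7.82%), it was 0 for Gr and 1 for Ir genes (Ir76a). Or genes had 0 under all 8 alternatives. Leaving out a replicate gave medians of candidates per gene of 3 to 4 (all), 4 to 5 (Or), 3 to 3 (Gr) and 3.5 to 4 (Ir). It gave median strongest signals of 13.1 to 16.4, 14.2 to 16.0, 12.3 to 16.7 and 14.5 to 16.2, each on the scale of that replicate's own list. Within 2 kb of the TSS the medians were 4 candidates and a signal of 22.5 (all), 4 and 23.3 (Or), 3 and 21.3 (Gr), and 4 and 22.1 (Ir). Candidates at or above the median signal gave 3 (all), 3 (Or), 2 (Gr) and 3 (Ir). The other ranked list gave 5 (all) and 7 (Ir). With starts of all biotypes the medians were 5 candidates (all), and 5.5 and a signal of 25.1 (Ir). The share of receptor genes with a candidate near a start was 59.8% for a window of 250 bp, 95.5% for 1 kb, 50.3% to 56.4% in single replicates and 47.5% for candidates at or above the median signal. The same shares for all genes were 58.9%, 87.4%, 61.2% to 70.1% and 58.0%, so the receptor genes stood below all genes in single replicates and at higher signal. The share of receptor candidates near their gene's start was 12.4% as reported, 6.87% and 25.2% for these windows and 10.4% to 11.2% in single replicates. The cause of these shifts was not tested. No paired analysis was possible because there is 1 group. With 2 replicates and no control libraries, and with depth unknown, weak signal cannot be told apart from background.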

Other observations

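The receptor genes with the lowest strongest candidates were spread over the families. They were Ir75c (7.44), Or19a (8.35), Or23a (8.62) and Gr59f (9.74), followed by Ir94b (11.3) and Or19b (11.6). Or23a had a strongest candidate of 16.4 in the list of replicate 1 and of 8.03 in that of replicate 2. Gr59f, by contrast, lay 4172 bp from a thresholded peak of 88.6 at the start of wmd. Ir48c, with no peak of its own, lay 2322 bp from a peak of 89.0 in an intron of ths, which encodes an FGF ligand. Gr5a, a trehalose receptor, lay 2535 bp from a peak of 62.9 in an intron of Tre1, which stands beside it on X.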
